A study of Mus musculus with 8 samples.

Results

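The Myc, Max and Mxd network is a family of transcription factors that dimerise through a basic helix-loop-helix leucine zipper. The 9 members described here were taken by name as a gene family, with no threshold on their values, though with earlier results of these data known: Myc, Mycn, Mycl, Max, Mxd1, Mxd4, Mxi1, Mnt and Mlx, out of 53715 genes in the count tables. All 9 identifiers were found, and 8 of them passed the filter on low counts, Mycl being the exception.

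Max is the common partner of the network. Myc, Mycn and Mycl pair with Max, bind the E-box sequence and raise transcription of genes for growth, ribosome assembly and metabolism, whereas Mxd1, Mxd4, Mxi1 and Mnt pair with the same Max, bind the same sequence and recruit Sin3 and histone deacetylases to lower it. Mlx is a second hub, which pairs with some Mxd proteins, with Mnt and with the nutrient-sensing factors MondoA (Mlxip) and ChREBP (Mlxipl). In bone marrow, loss of Myc is known to let stem cells accumulate in the niche with impaired differentiation, and Mxd proteins are known for their rise as blood cells mature.

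The RNA was that of mouse haematopoietic stem cells, sorted from bone marrow as LSK CD48- CD150+ cells (lineage-negative, Sca-1-positive and Kit-positive, without CD48 and with CD150), with 1 library for each of 8 mice. The wild-type group (Gata2 WT) and the group labelled Gata2; Mx1-Cre Heterozygote held 4 mice each. All mice were 8 to 12 weeks old and all had received 6 doses of pIpC, a double-stranded RNA mimic that raises interferon. Mx1-Cre is a recombinase transgene under the interferon-inducible Mx1 promoter, which is active in many tissues besides blood. The labels name it only for the heterozygotes and do not say whether wild-type mice carried it, so an effect of the transgene and an effect of the Gata2 allele cannot be told apart.

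Libraries held 16750778 to 22861884 assigned fragments. Gata2, the gene whose allele defines the groups, stood at 30.1, 45.3, 29.1 and 38.5, in CPM (a counts-per-million scale after TMM scaling), for wild-type replicates 1 to 4, and at 35.5, 61.9, 36.7 and 45.1 CPM in heterozygote-labelled replicates 1 to 4, so it was not lower under the heterozygote label, and directions below follow the deposited labels. Of 11 stem cell markers, all had a mean of at least 1 CPM, and their summed level was 766 to 1114 CPM in wild-type and 799 to 934 CPM in heterozygote-labelled libraries. Among markers of other blood cells, Pax5 of B cells and Cd3e, Cd3g and Cd8a of T cells had 0 counts in all libraries, while others were well detected. Cd79b, from the B cell list, averaged 119 and 113 CPM (wild type, then heterozygote label), Nkg7, from the T and NK cell list, 310 and 398 CPM, and the granulocyte and monocyte genes Lyz2 and Prtn3 363 and 353 CPM and 164 and 157 CPM. The summed granulocyte and monocyte list ran from 548 to 673 CPM in wild-type and from 518 to 674 CPM in heterozygote-labelled libraries. These 4 genes were chosen after their values were seen, and the part of such RNA in the values below was not tested. The summed level of 5 markers of multipotent progenitors, the next cells downstream, did not overlap between the groups. It was 670 to 834 CPM in wild-type and 916 to 1076 CPM in heterozygote-labelled libraries. Among single genes tested, 3.47% did not overlap. The log2 fold changes were 0.78 for Cd53, 0.63 for Emb and 0.88 for Flt3, but 0.003 for Cd34 and 0.06 for Cd48. Thus 5 of 5 lay above 0, against 48.0% of all genes tested (3 of 5 by library size alone or with the GC and length trend described below removed). At an adjusted p of 0.05, 0 of the 5 passed by edgeR. The lowest DESeq2 adjusted p among them was 0.0466, and DESeq2 called 0.207% of all genes. Of 7 megakaryocyte and platelet markers, 6 had a fitted change below 0, with a median log2 fold change of -0.62. Of 8 tested erythroid markers, 6 lay below 0, with a median of -0.82. Over all genes tested 52.0% lay below 0, and the median was -0.02. In either list 0 markers passed, and the summed levels of both lists overlapped between the groups. In a bulk sample, fewer cells of a type and less RNA per cell cannot be told apart. The part of these marker differences in the values below was not tested.

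The network's binding sequence, the E-box CACGTG, lies in the promoters of some of its own members. RefSeq promoter windows of 300 bases (250 before and 50 after the start site, GRCm38.p6) were matched by symbol for 8 of the 9 members, 10 windows in all because Mxi1 has 3. CACGTG reads the same on both strands, and it was found in the windows of Max, Mxd4, Mnt and Mlx. Over all 32851 windows of that length, 7.15% hold it. The stretch of 60 bases around each match is shown here 5′ to 3′ on the gene's strand with the E-box in capitals, because it is the sequence that the network's dimers recognise; a match is a description of letters and not a measured site.
Max, chr12:76962219-76962278, minus strand: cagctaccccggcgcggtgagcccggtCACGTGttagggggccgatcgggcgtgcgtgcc
Mxd4, chr5:34187897-34187956, minus strand: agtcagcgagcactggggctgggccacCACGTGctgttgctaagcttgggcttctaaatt
Mnt, chr11:74830774-74830833, plus strand: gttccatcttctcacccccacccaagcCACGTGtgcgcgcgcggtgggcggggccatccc
Mlx, chr11:101087223-101087282, plus strand: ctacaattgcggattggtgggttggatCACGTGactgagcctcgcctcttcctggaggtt
In Max the E-box began 3 bases before the start site and so spans it, in Mlx it began 40 bases before, in Mnt 123 and in Mxd4 219. The GATA motif (the letters GATA preceded by A or T and followed by A or G, searched on both strands, and sharing no position with the E-box of Mlx) were found in 29.8% of all windows and in 1 member's window, that of Mlx, 85 bases before the start. The 60 bases around that match, with the motif as it reads on the gene's strand in capitals, are shown because Gata2 is the gene altered in these mice.
Mlx, chr11:101087178-101087237, plus strand: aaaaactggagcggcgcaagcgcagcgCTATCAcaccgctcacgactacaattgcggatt

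Levels within the network differed widely between members. Compared per length on a transcripts-per-million scale (TPM, mean ± SD over all 8 libraries), Myc stood at 140 ± 52.7 TPM, Mlx at 43.5 ± 14.1 TPM, Max at 24.5 ± 11.2 TPM and Mycn at 20.8 ± 5.87 TPM. Below these came the antagonists among the members, with Mxi1 at 7.97 ± 2.28 TPM, Mxd1 at 5.41 ± 1.65 TPM, Mxd4 at 2.90 ± 1.81 TPM and Mnt at 1.30 ± 0.857 TPM. Myc was thus the leading Myc-family transcript of these stem cells, and by level it lay at percentile 90.2 of the tested genes, while Mnt lay at percentile 12.2. Myc stood above Mlx in 8 of 8 libraries without overlap of their ranges, and Mlx above Max in 8 of 8 with overlapping ranges. Max exceeded Mycn in 4 of 8 libraries and Mxi1 exceeded Mxd1 in 5 of 8, so the order within either pair was not fixed. Max stood above Mycn in 3 of 4 wild-type libraries, with means of 31.1 and 19.8 TPM, and in 1 of 4 heterozygote-labelled ones, with means of 17.9 and 21.8 TPM. Mxd4 exceeded Mnt in 5 of 8.

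**Figure D1:**
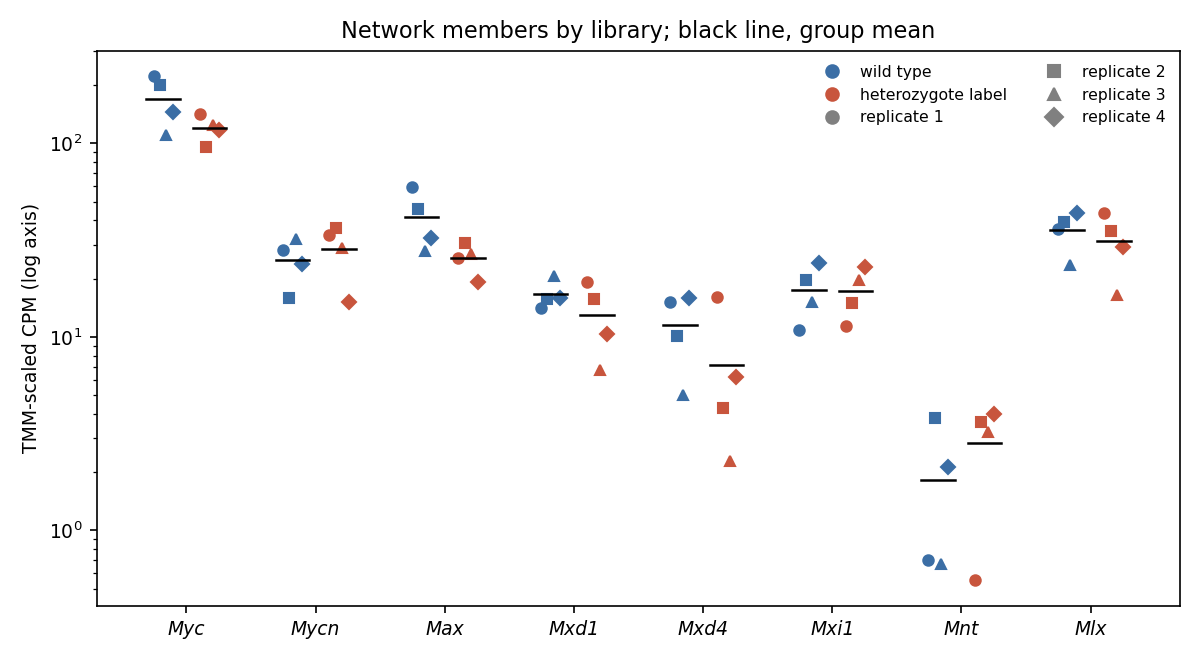
Each point is 1 library, with TMM-scaled CPM on a log axis, colour for the group, shape for the replicate number and a black line for the group mean. Myc and Max are highest in wild-type replicates 1 and 2, and Mxd4 and Mnt spread over the widest range, 6.98 and 7.24 times from the lowest to the highest library.

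Among the activators, Myc, the broadly acting growth regulator, was lower on average under the heterozygote label without passing the test. The gene (ENSMUSG00000022346.15) occupies bases 61985391 to 61990374 of chromosome 15 (GRCm38, plus strand), and its 2717 exonic bases overlap no other gene's exons. Wild-type replicates 1 to 4 measured 223, 199.5, 111 and 146 CPM. In heterozygote-labelled replicates 1 to 4 it measured 142, 96.0, 124 and 117 CPM. The groups overlapped: wild-type replicates 1, 2 and 4 lay above every heterozygote-labelled library, replicate 4 only narrowly, and wild-type replicate 3 lay within their range. Means were 169.8 ± 50.8 and 119.8 ± 19.2 CPM (SD, n = 4 each), a log2 fold change of -0.50 (SE 0.22). The 95% interval of the fold ran from 0.505 to 0.987, and all 4 heterozygote-labelled libraries lay below the wild-type mean.

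Its edgeR quasi-likelihood p was 0.0431 unadjusted and 0.850 after Benjamini-Hochberg adjustment over the 13992 genes tested, where 0 genes (0%) passed. An exact permutation of the libraries' log2 CPM values (two-sided) gave p = 0.171, the smallest value that 70 assignments allow being 0.0286. The 2 highest libraries were also those in which GC-rich genes took a larger share: the Spearman correlation across genes between a library's deviation and GC content (genes are not independent replicates) was 0.222 and 0.287 in wild-type replicates 1 and 2, and -0.196 to 0.0861 in the other 6 libraries. The longest Myc transcript has 53.3% GC. That of Max, also highest in these 2 libraries, has 49.6%. Mycn, with 54.8%, stood at 28.0 and 15.8 CPM in them, against 32.2 and 23.7 CPM in wild-type replicates 3 and 4. Whether the GC trend is the cause of the Myc difference was not tested. Once each library's trend with GC content and gene length was taken out, the log2 fold change of Myc was -0.28 (SE 0.15, edgeR unadjusted p = 0.102). Without wild-type replicate 1 it was -0.34, with an unadjusted p of 0.149 by edgeR. Without wild-type replicate 3 it was -0.66, with an unadjusted p of 0.0051 by edgeR (adjusted p = 0.197).

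Mycn, which can stand in for Myc in blood stem cells, had overlapping groups and a fitted change above 0. The gene lies on chromosome 12 from 12936093 to 12941914 on the minus strand. Wild-type replicates 1 to 4 held 28.0, 15.8, 32.2 and 23.7 CPM, and heterozygote-labelled replicates 1 to 4 held 33.7, 36.4, 28.7 and 15.1 CPM. Both the 2 highest libraries and the lowest one carried the heterozygote label. The log2 fold change was 0.19 (SE 0.31, edgeR adjusted p = 0.942), with a 95% interval of the fold from 0.702 to 1.86. With single libraries left out it ran from 0.04 (without wild-type replicate 2) to 0.40 (without heterozygote-labelled replicate 4).

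Mycl, the family member known from dendritic cells, was barely detected. Its exons of 4038 bases on chromosome 4 (122995652 to 123002485) collected 1 fragment in each of heterozygote-labelled replicates 3 and 4 and 0 in the other 6 libraries. A count of 0 allows up to 3 counts, which is 0.124 to 0.184 CPM depending on the library. Myc therefore made up 76.2% to 93.9% of the summed TPM of the family, with 88.3% ± 5.59 in wild-type and 83.5% ± 5.79 in heterozygote-labelled libraries (SD, n = 4 each).

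Max, the obligate partner, was also lower on average under the heterozygote label without passing the test. The gene (ENSMUSG00000059436.13) lies on chromosome 12 from 76937269 to 76962201 on the minus strand. Wild-type replicates 1 to 4 measured 59.5, 46.0, 27.8 and 32.5 CPM. In heterozygote-labelled replicates 1 to 4 it measured 25.7, 30.5, 26.7 and 19.2 CPM. 3 of the 4 heterozygote-labelled libraries lay below all wild-type ones, and the overlap came from heterozygote-labelled replicate 2, which lay above wild-type replicate 3. Means were 41.4 ± 14.3 and 25.5 ± 4.71 CPM (SD, n = 4 each), a log2 fold change of -0.70 (SE 0.27) with a 95% interval of the fold from 0.407 to 0.932.

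By edgeR the unadjusted p for Max was 0.0264 and the adjusted p 0.850; DESeq2 gave an adjusted p of 0.476, and the exact permutation test p = 0.0571. With the GC and length trend removed the log2 fold change was -0.55 (SE 0.24), and without wild-type replicate 1, the highest library, -0.46 (edgeR unadjusted p = 0.102). Max and Myc were the 2 of 8 tested members with an unadjusted p under 0.05, against 5.66% of all genes tested (3.29% in the lower direction). No member's groups were fully separate, against 3.47% of all genes. Both genes were highest in the same 2 wild-type libraries, and the ratio of Myc to Max per length in wild-type libraries was 5.49 ± 0.442, against 6.43 ± 1.70 in heterozygote-labelled libraries (SD, n = 4 each), and the groups overlapped.

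**Figure D2:**
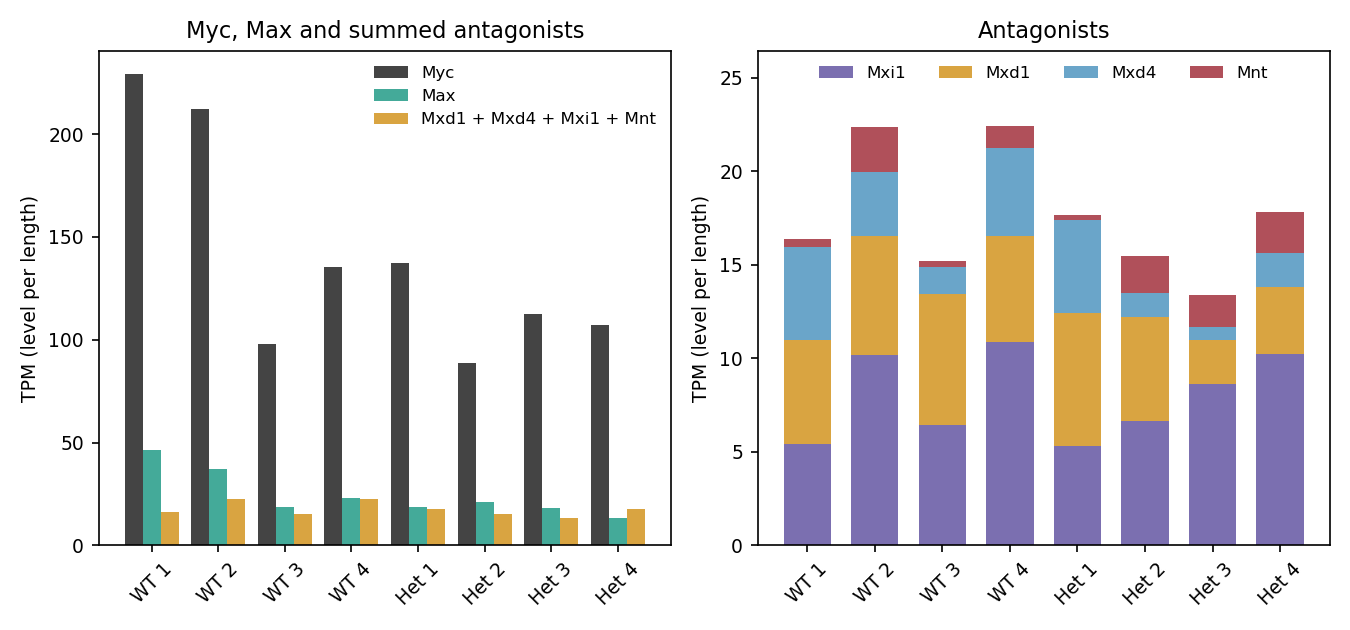
Bars give TPM per library for Myc, Max and the summed antagonists Mxd1, Mxd4, Mxi1 and Mnt (left) and for the 4 antagonists stacked (right), with WT for wild type and Het for the heterozygote label. Myc exceeds Max 4.16 to 8.05 times in every library, while the antagonist sum stays between 13.4 and 22.4 TPM with a changing make-up.

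None of the 4 antagonists passed the test, and their fitted changes lay on both sides of 0. Mxd1, an antagonist known to rise with myeloid maturation, is encoded on chromosome 6 from 86647042 to 86669161. It measured 14.1, 15.6, 20.7 and 15.9 CPM in the wild-type mice 1 to 4, against 19.2, 15.7, 6.76 and 10.3 CPM in the heterozygote-labelled mice 1 to 4. The wild-type libraries were close together, with a coefficient of variation of 17.1%, and the heterozygote-labelled ones were spread, at 42.7%, with replicates 3 and 4 below and replicate 1 near the top of the wild-type range. The log2 fold change was -0.35 (SE 0.34, edgeR adjusted p = 0.897). It was -0.59 without heterozygote-labelled replicate 1, -0.14 without heterozygote-labelled replicate 3 and -0.23 without wild-type replicate 3.

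Mxd4, an antagonist expressed in resting and mature cells, lies on chromosome 5 from 34173883 to 34187720. Wild-type mice 1 to 4 gave 15.1, 10.1, 5.02 and 15.8 CPM. Heterozygote-labelled mice 1 to 4 gave 16.0, 4.28, 2.29 and 6.19 CPM. 1 heterozygote-labelled library was the highest of all 8, while the other three were among the 4 lowest, and the range over the libraries was 6.98 times. The log2 fold change of -0.67 (SE 0.59, edgeR adjusted p = 0.882) had a 95% interval of the fold from 0.251 to 1.56. It was -1.42 without heterozygote-labelled replicate 1 (edgeR unadjusted p = 0.0237, adjusted p = 0.804) and -0.38 without heterozygote-labelled replicate 3. With a replicate block it was -0.91 (SE 0.37, edgeR unadjusted p = 0.0467, adjusted p = 0.723).

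Mxi1 (also called Mxd2) had the highest mean level per length of the 4 antagonists among the members, above Mxd1 in 5 of 8 libraries, and showed the smallest fitted difference of the members. The gene lies on chromosome 19 from 53310506 to 53375810. It measured 10.9, 19.8, 15.1 and 24.2 CPM in the wild-type mice 1 to 4, against 11.4, 14.9, 19.7 and 23.0 CPM in the heterozygote-labelled mice 1 to 4. In both groups replicate 1 was lowest and replicate 4 highest, and the ranges nearly coincided. The log2 fold change was -0.02 (SE 0.32), its sign turned with upper quartile scaling, and the 95% interval of the fold, 0.602 to 1.62, leaves room for sizeable differences either way.

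Mnt, the antagonist found in most cell types whether or not they divide, was rare and uneven. It lies on chromosome 11 from 74830920 to 74845725, and 11 to 78 fragments per library were assigned to it. Levels were 0.703, 3.79, 0.670 and 2.11 CPM in the wild-type mice 1 to 4, against 0.551, 3.61, 3.22 and 3.99 CPM in the heterozygote-labelled mice 1 to 4. 3 libraries, of both groups, lay under 1 CPM and the other 5 above 2 CPM. Counting error alone would give a coefficient of variation of about 14.8% at the mean count, and the observed values were 81.1% in wild-type and 54.9% in heterozygote-labelled libraries. The log2 fold change was 0.64 (SE 0.79, edgeR adjusted p = 0.926), and the interval of the fold, 0.462 to 5.28, is the widest among the members. It was 1.30 without wild-type replicate 2, 1.00 without heterozygote-labelled replicate 1, 0.38 without wild-type replicate 1 and 0.37 without wild-type replicate 3. It was 1.07 with the GC and length trend removed.

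Summed per length, the 4 antagonists reached 19.1 ± 3.83 TPM in wild-type and 16.1 ± 2.10 TPM in heterozygote-labelled libraries (SD, n = 4 each), with overlapping ranges. Their make-up varied from mouse to mouse: the Mxd4 share ran from 4.97% to 30.3% of the sum. Myc exceeded the antagonist sum 14.0, 9.50, 6.44 and 6.04 times in wild-type replicates 1 to 4 and 7.76, 5.74, 8.41 and 6.02 times in heterozygote-labelled replicates 1 to 4. This sum leaves out Mxd3, which is described below and was higher per length than any of the 4. On the log2 scale the heterozygote-labelled mean was lower by a difference of -0.30, given as a description without a test. The difference was -0.06 without wild-type replicate 1 and -0.46 without wild-type replicate 4. With Mxd3 added, a choice made after seeing the data, Myc exceeded the sum 2.37 to 5.34 times in wild-type and 2.67 to 4.197 times in heterozygote-labelled libraries, and the log2 difference was -0.24. The sum itself was then 40.2 to 46.4 TPM in wild-type and 32.7 to 37.5 TPM in heterozygote-labelled libraries. These ranges did not overlap, given as a description of a sum composed after seeing the data. Among single genes tested, 3.47% did not overlap. For the sum of the 4 and for Mxd3 alone the groups overlapped.

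Mlx, the hub of the nutrient-sensing branch, lies on chromosome 11 from 101087277 to 101092207, and 19.3% of its exonic bases are overlapped on the opposite strand by Psmc3ip, which strand-specific counting keeps apart. It measured 36.0, 39.4, 23.4 and 43.6 CPM in the wild-type mice 1 to 4, against 43.9, 35.1, 16.4 and 29.2 CPM in the heterozygote-labelled mice 1 to 4. Replicate 3 was the lowest library in either group, and the highest and the lowest of all 8 both carried the heterozygote label. The log2 fold change was -0.19 (SE 0.31, edgeR adjusted p = 0.940) and turned to 0.02 without heterozygote-labelled replicate 3. Its partner Mlxip (MondoA) averaged 9.86 ± 3.90 and 9.52 ± 2.93 CPM (SD, n = 4 each), and its log2 fold change was -0.05 (SE 0.38). Mlxipl (ChREBP), known from liver and fat, had 6 fragments in heterozygote-labelled replicate 4 and 0 in the other 7 libraries.

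2 further genes complete the network. Mxd3, an Mxd protein known from cycling cells, averaged 21.4 ± 4.75 CPM in wild-type and 17.7 ± 3.37 CPM in heterozygote-labelled libraries (log2 fold change -0.28, SE 0.25). Per length it stood at 23.6 ± 4.00 and 18.7 ± 3.13 TPM. Mga, a very large Max partner that joins a repressive Polycomb complex, averaged 54.0 ± 20.8 and 59.4 ± 14.8 CPM (0.14, SE 0.32). Neither passed (edgeR adjusted p = 0.888 and 0.953).

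**Figure D3:**
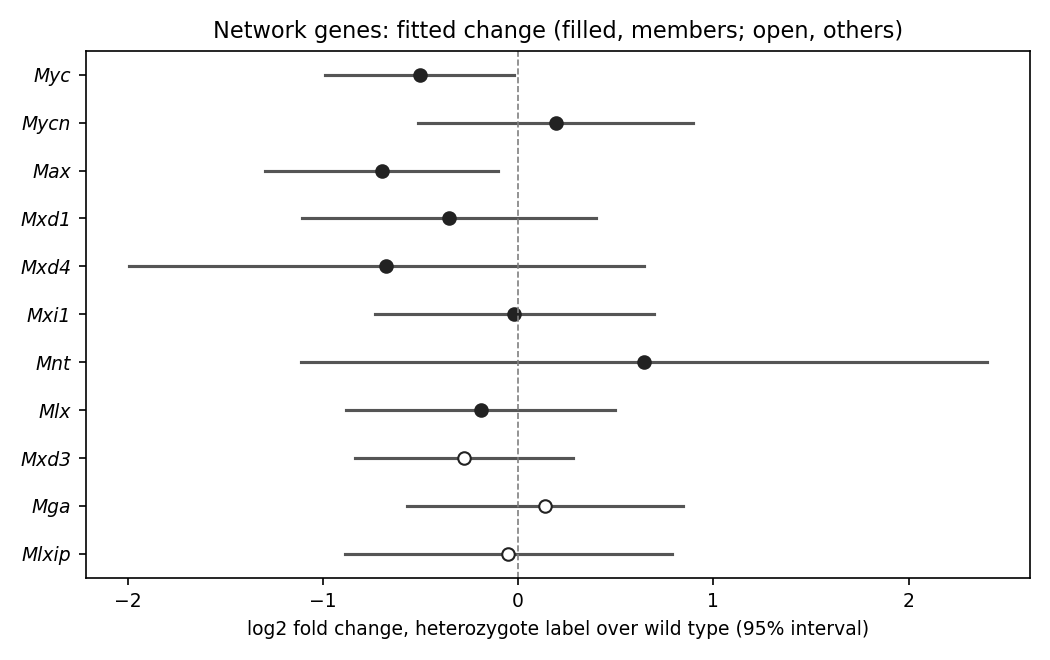
Points give the fitted log2 fold change, heterozygote label over wild type, and lines its 95% interval, with filled points for members and open points for Mxd3, Mga and Mlxip. Only the intervals of Myc and Max lie wholly below 0, and neither gene passes after adjustment.

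Over the network, 0 of 8 tested members passed the threshold in either direction, by edgeR or by DESeq2, which called 0.207% of all genes. 6 had a log2 fold change below 0 and 2 above 0 (5 and 3 with upper quartile scaling or with the GC and length trend removed), against 52.0% of all genes below 0 and 48.0% above. The median was -0.27, beside -0.02 over all genes tested. The median over all genes itself moved to 0.04 with the GC and length trend removed and to -0.08 by library size alone. Direction counts given for those settings, here and below, are to be read beside these values. Without heterozygote-labelled replicate 3 the members' median was -0.11, and without heterozygote-labelled replicate 1 it was -0.49. Biological variation, as the tagwise coefficient of variation that edgeR estimates, ran from 0.227 for Myc (percentile 25.3 among tested genes) to 0.782 for Mnt (percentile 83.8), so a difference of a given size is measured most precisely for Myc and least for Mnt.

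Partners through which these proteins act gave list medians nearer to 0 than the members' median. Of 13 coactivators and binding partners of Myc, 8 were lower and 5 higher, 0 passed, and the median log2 fold change was -0.06. The 3 most abundant were Actl6a, an actin-like subunit of chromatin remodelling complexes, at 253 ± 8.94 and 276 ± 30.2 CPM, and the ATPases Ruvbl2, at 271 ± 13.3 and 246 ± 34.7 CPM, and Ruvbl1, at 216 ± 15.4 and 214 ± 5.97 CPM (wild type, then heterozygote label; SD, n = 4 each). With the GC and length trend removed 5 were lower and 8 higher. Of 9 corepressor genes, 5 were lower and 4 higher, with a median of -0.05 (4 lower and 5 higher with the GC and length trend removed). Hdac1, a histone deacetylase, measured 180 ± 40.4 and 135 ± 18.3 CPM (log2 fold change -0.42, SE 0.18, edgeR adjusted p = 0.850). Sap30 and Sin3b, subunits of the Sin3 complex, differed by 0.17 (SE 0.14) and -0.11 (SE 0.13).

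Genes that set the life of the Myc protein were also mixed, with 7 of 13 lower, 6 higher, 0 passing and a median of -0.11 (4 lower and 9 higher with the GC and length trend removed). Gsk3b, the kinase that marks Myc for degradation, averaged 279 ± 52.6 CPM (wild type) and 383 ± 43.0 CPM (heterozygote label) (SD, n = 4 each). Its log2 fold change was 0.46 (SE 0.14, edgeR unadjusted p = 0.0096, adjusted p = 0.850), all 4 heterozygote-labelled libraries lay above the wild-type mean, and the groups overlapped. Ppp2ca, a phosphatase subunit, differed by 0.28 (SE 0.20). Huwe1, a very large ubiquitin ligase singled out after its values were seen, differed by -0.82 (SE 0.33, edgeR unadjusted p = 0.0349).

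Genes described as activated by Myc lay close to the middle of all genes. Of 21 genes of the nucleolus and ribosome assembly, 14 were lower, 7 higher and 0 passed, with a median of -0.07 (9 lower and 12 higher with the GC and length trend removed). The nucleolar proteins Npm1, at 1106 ± 188 and 1226 ± 59.3 CPM, Ncl, at 565 ± 38.1 and 602 ± 96.1 CPM, and Nop58, at 467 ± 70.8 and 547 ± 90.9 CPM, had log2 fold changes of 0.15 (SE 0.12), 0.09 (SE 0.12) and 0.23 (SE 0.15). The 3 most abundant genes thus lay on the other side of 0 from the list median. Gnl3, a nucleolar GTPase singled out after its values were seen, was the one gene of this list with an unadjusted edgeR p under 0.05 (log2 fold change 0.33, SE 0.13, edgeR adjusted p = 0.850).

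Of 21 Myc-activated genes of metabolism, translation and cell cycle entry, 13 were lower, 8 higher and 0 passed, with a median of -0.04. With the GC and length trend removed 9 were lower and 12 higher. The translation factor Eif4a1 differed by -0.17 (SE 0.13), the purine synthesis enzyme Paics by -0.04 (SE 0.09) and the translation factor Eif2s1 by 0.16 (SE 0.14). Ldha, the lactate dehydrogenase subunit and the one gene of this list with an unadjusted edgeR p under 0.05, was singled out after its values were seen and averaged 714 ± 118 and 569 ± 59.3 CPM (log2 fold change -0.33, SE 0.14, edgeR adjusted p = 0.850). The lowest fitted change of the list, also singled out after its values were seen, was that of Shmt2, a mitochondrial enzyme of one-carbon metabolism (-0.92, SE 0.46). Genes of cycling cells gave 6 of 10 lower and a median of -0.04. By library size alone 9 of 10 were lower, where the median over all genes tested was -0.08. Pcna differed by 0.12 (SE 0.13), Top2a by -0.07 (SE 0.11) and Tyms by 0.05 (SE 0.15).

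Of 7 genes described as repressed by Myc, 6 were tested, 4 higher and 2 lower (3 and 3 by library size alone), with a median of 0.19 that was 0.05 without heterozygote-labelled replicate 2. Cdkn1b, the cyclin-dependent kinase inhibitor p27, averaged 34.5 ± 8.87 CPM (wild type) and 46.4 ± 11.96 CPM (heterozygote label) (log2 fold change 0.43, SE 0.25, edgeR adjusted p = 0.850). Ndrg1 and Ndrg2 differed by -0.25 (SE 0.26) and 0.01 (SE 0.27). Gadd45a, a stress-response gene named after its values were seen because its groups did not overlap, was lower under the heterozygote label, at 8.23 ± 1.81 and 4.43 ± 2.18 CPM (-0.89, SE 0.43, edgeR adjusted p = 0.850).

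Of 6 genes driven by Mlx with MondoA or ChREBP, 5 were tested, 4 lower and 1 higher, with a median of -0.28 that was -0.05 with the GC and length trend removed and 0.06, with 2 lower and 3 higher, when a replicate block was added to that removal. Leaving out heterozygote-labelled replicate 2 gave a median of -0.43, leaving out wild-type replicate 3 gave -0.18, and leaving out wild-type replicate 2 or heterozygote-labelled replicate 4 gave -0.14. Txnip, the glucose-sensitive regulator of thioredoxin, stood at 176 ± 68.0 and 169 ± 28.0 CPM (-0.06, SE 0.25). Klf10, a zinc-finger factor, measured 158 ± 52.7 and 102 ± 16.9 CPM, with a log2 fold change of -0.63 (SE 0.25, edgeR unadjusted p = 0.0296, adjusted p = 0.850). Arrdc4, an arrestin family member, differed by -0.52 (SE 0.30).

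**Figure D4:**
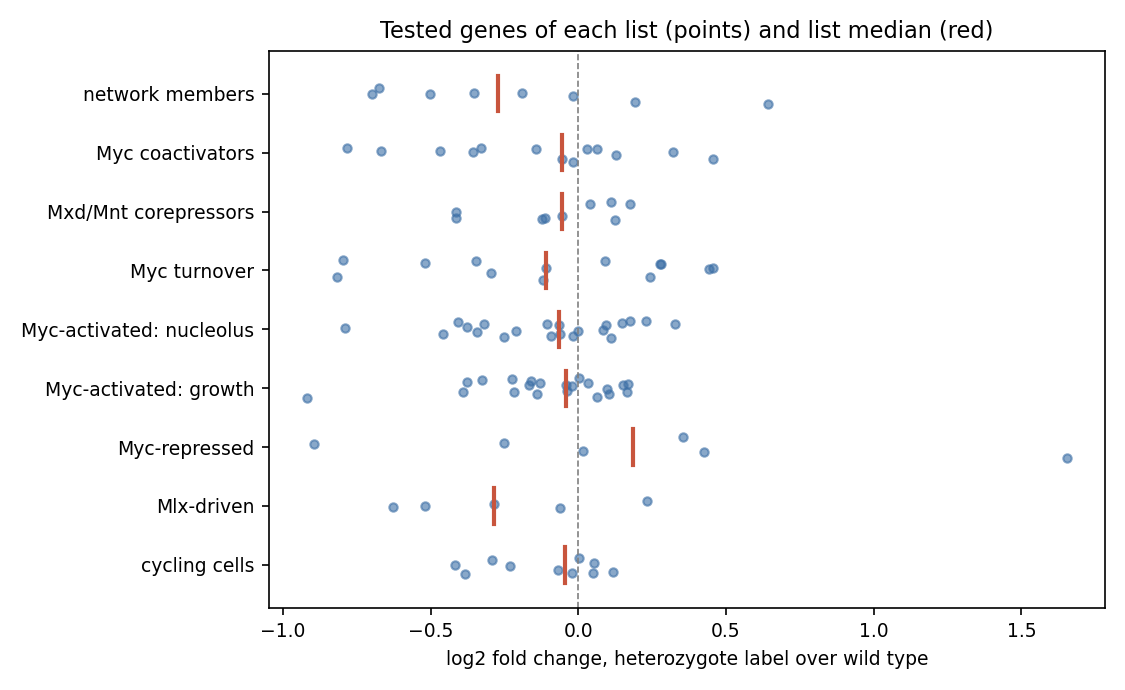
Each point is a tested gene, placed by its log2 fold change (heterozygote label over wild type), and the red line is the median of its list. The list medians shown lie between -0.28 and 0.19, with the genes of most lists on both sides of 0.

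The profile of Myc over the 8 libraries was compared with that of 7812 genes averaging 10 CPM or more, as the root mean square difference of log2 CPM values centred on each gene's mean. The 5 nearest named genes were Cybc1 (0.0967), Tex261 (0.105), Pld3 (0.110), Zpr1 (0.116) and Coro1b (0.117), on the log2 scale, where the median over all genes was 0.5002. Cybc1, a chaperone of the phagocyte oxidase, averaged 69.0 ± 17.2 CPM in wild-type and 47.3 ± 5.96 CPM in heterozygote-labelled libraries. Among the members, Max lay nearest to Myc at 0.283, with 6.31% of genes as near or nearer. Mlx lay at 0.467, Mxd1 at 0.595, Mxi1 at 0.627 and Mycn at 0.689, with 87.6% of genes as near or nearer than Mycn. Around Mxd1 the 3 nearest were Herc1 (0.211), Aqp9 (0.224) and Upp1 (0.232), all farther off than the 5 genes around Myc, and Mlx was the nearest member at 0.392 with 3.83% of genes as near or nearer.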

How the data were processed

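The authors deposited raw fragment counts per gene for each library, not normalized. Per the file headers, paired reads were counted with featureCounts 1.6.2 in reverse-stranded mode over exons of GENCODE M17 genes, both ends mapped; per the submitters' processing notes, the tools were Trim Galore, cutadapt and STAR 2.5.1b with the GRCm38 build, and featureCounts was 1.5.1, a difference that was not resolved. Per the labels' protocols, libraries were made from 30 to 260 ng of RNA depleted of ribosomal RNA, with 11 PCR cycles. Fragments mapping to several places were left out under these options. Floors of 3 counts cover counting error only. The intervals of the fold come from the edgeR quasi-likelihood fit and also include the spread between libraries.

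Groups and replicate numbers came from the library descriptions. Symbols came from GENCODE M21 by identifier (53620 of 53715 matched). Genes were kept by filterByExpr (13992), scaled by TMM, and compared with edgeR 4.0.16 quasi-likelihood fits in R 4.3.3 with genotype as the only term, adjusted by Benjamini-Hochberg at 0.05. A prior count of 2 was added for log2 CPM values. TPM values were computed from the counts and the exonic lengths in the files. Every pair of libraries differed by more than sampling noise (lowest chi-square per degree of freedom 35.4). Alternatives were DESeq2 1.42.0, limma 3.58.1, other scalings and filters, a replicate block, a sex term, removal of GC and length trends (loess on GC content of the longest transcript), and each library left out. The fit was also run on simulated data with 200 changed genes. Their changes were larger than those fitted for Myc and Max, and no GC trend was simulated. That run therefore does not bear on changes of the size seen for Myc and Max.

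The members, gene lists and tests were chosen with earlier results of these data known. Named were the members, Gata2, Mxd3, Mga, Mlxip and Mlxipl, the 3 most abundant genes of each list, and the nearest profiles to Myc (5) and Mxd1 (3), predicted genes left out; others are marked where named, and 1 gene that this rule names is not reported here.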

Additional observations from a re-analysis of the deposited data

Results flagged for a closer look

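In 88 groups of 4 libraries examined, 6 held a library whose gap to its nearest neighbour exceeded Dixon's critical share of the group's range on the log2 scale; chance gives about 1 in 20. Mnt was low in heterozygote-labelled replicate 1, at 0.551 CPM against 3.22 to 3.99 CPM in the other three. Mga was low in wild-type replicate 4, at 23.5 CPM against 59.6 to 69.7 CPM. Wild-type replicate 3 was high for Eif2s1 (866 CPM against 580 to 616 CPM) and Pcna (505.05 CPM against 369 to 380 CPM). Sap30 was high in heterozygote-labelled replicate 4, at 148 CPM against 129 to 131 CPM, and Pld3 was low in heterozygote-labelled replicate 2, at 13.8 CPM against 17.2 to 17.8 CPM.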

How the results depend on the processing

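No member passed the threshold in any of 19 alternatives (lowest adjusted p 0.197, for Myc without wild-type replicate 3). DESeq2 called 29 of all genes (0.207%), 15 higher and 14 lower, against 0 by edgeR (792 at an unadjusted p under 0.05), and limma-voom called 0 (1412). Over the alternatives the log2 fold change ran from -0.66 to -0.27 for Myc and from -0.85 to -0.46 for Max, with unadjusted p-values of 0.0051 to 0.149 and 0.0087 to 0.102. Mxi1 turned to 0.0089 with upper quartile scaling, 0.0227 with limma-voom, 0.0189 with the GC and length trend removed and 0.0329 with the trend removed and a replicate block, and ran from -0.19 to 0.18 as libraries were left out. Mlx ran from -0.395 to 0.0198 in the same way, above 0 without heterozygote-labelled replicate 3. With the GC and length trend removed, alone and then with the replicate block, list medians were 0.107 and 0.111 for coactivators and 0.0829 and 0.0914 for turnover regulators, and 0.0679 and 0.0678 for nucleolar genes; corepressors reached 0.0811 with the trend removed and the block, and repressed genes 0.315 with the trend alone. Left-out libraries moved the nucleolar median between -0.176 and -0.0155 and the median of repressed genes between 0.0457 and 0.209. With the trend removed, alone and then with the block, the median over all genes tested was 0.0358 and 0.0312. The causes were not tested.

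Whether replicate numbers pair the libraries was not settled. Deviations from the group means correlated by 0.0437, 0.0057, 0.0961 and 0.0215 for the same numbers 1 to 4. Between unlike numbers the correlations ran from -0.0844 to 0.0496, and not every library correlated best with its own number. A pairing was not excluded. With the replicate block the log2 fold change was -0.47 for Myc and -0.66 for Max, 0 genes passed and 946 had an unadjusted p under 0.05. The ratio of Myc to its antagonists was recomputed only with libraries left out (-0.46 to -0.06) with the trend removed (-0.20) and, added after seeing the data, with Mxd3 among the antagonists (-0.24), since scaling cannot change it. Mycl was left out because the filter removed it. Mnt, with 11 to 78 fragments, is limited by depth and spread.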
